A study of Rattus norvegicus with 12 samples.

Results

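The plasma protease inhibitors of the acute phase described here are 8 rat genes, A2m, Serpina1, Serpina3c, Serpina3n, Serping1, Serpina10, Itih3 and Itih4, out of 10411 genes that the array platform's annotation names by a single symbol. They were chosen by name and function, with earlier results of these data known, so counts among them are description only. A probe set was taken only where its annotation gave 1 of these symbols and no other. Each gene had exactly 1 such probe set, and 0 further probe sets shared their symbols with another gene. Total RNA of rats with a thermal injury (burn) was set against RNA of sham control rats on Affymetrix RAE230A arrays, and each sample is 1 value of burn over sham for every probe set. The 9 samples of days 2, 4 and 7 after the injury were used, 3 samples per day. The other 3 of the 12 samples, those of day 1, were left out because their probe set identifiers do not follow those of the later days. The labels give no genotype, strain, age, sex or tissue and do not say whether a sample is 1 animal, so the p-values below measure only the spread between samples, which may be technical. In such bulk RNA, fewer cells that make an RNA and less of that RNA per cell cannot be told apart.

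Plasma protease inhibitors are secreted mainly by hepatocytes and keep the proteases of clotting, complement and inflammatory cells in check. Alpha-2-macroglobulin traps proteases of every class inside its own tetramer, whereas a serpin offers a reactive loop as bait and is locked to the protease that cuts it. The inter-alpha-trypsin inhibitor heavy chains (Itih) are linked to the small inhibitor bikunin or handed on to hyaluronan in the matrix. In the acute-phase response, interleukin-6 acting through STAT3, together with glucocorticoids, raises a number of these genes in the liver. In the rat, A2m is the classical strongly induced one.

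Each value is the log2 quotient of a pair of array signals, as the authors deposited it, less the median of its array, so 0 is the median probe set of that array. The labels put injury in the second channel (Cy5) and sham in the first (Cy3), with no swap of dyes. Arrays of the named platform take 1 labelled sample each, so these labels do not match it and how each ratio was made is not known. The order is taken as injury over sham, so that values above 0 mean more RNA after the burn. That order is likely and not stated, so the direction of every value below depends on it. The array medians before centring lay between -0.13 and 0.16. The ratios of any pair of the 9 arrays correlated across probe sets with r between -0.105 and 0.148. The rank correlation across probe sets of the signals recovered from the ratios was between 0.663 and 0.716 for pairs of arrays among days 2, 4 and 7 and between -0.00406 and 0.0186 for pairs of a day 1 array with a later one. Each gene was tested with limma over the 9 arrays with a mean per day and Benjamini-Hochberg adjustment over all 10411 genes. A second limma fit, whose variance prior follows the brightness of the probe sets, is named the brightness fit wherever its calls differ.

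A2m, encoding alpha-2-macroglobulin, had the highest ratio of the 8 genes in 8 of the 9 samples and was above 0 in all 9. At day 2 its log2 ratios were 1.19, 2.90 and 1.52 in samples 1 to 3. At day 4 they were 0.15, 0.74 and 0.66, and at day 7 they were 1.67, 1.27 and 1.34. All 3 samples of day 4 lay below every sample of days 2 and 7, while the ranges of days 2 and 7 overlapped. Of all genes 2.8% had day 4 below both other days in this way and 3.42% had it above both. The mean was 1.87 ± 0.91 at day 2 (3.65-fold), 0.52 ± 0.32 at day 4 (1.43-fold) and 1.43 ± 0.21 at day 7 (2.69-fold; SD, n = 3 each).

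The mean A2m ratio over the 9 samples was 1.27 (2.41-fold, 95% interval of the limma fit 0.87 to 1.67). In the limma fit with a common variance prior it had an adjusted p of 0.0935 for this mean, 0.18 at day 2, 0.644 at day 4 and 0.205 at day 7, so it did not pass the threshold of 0.05. That fit called 4 of 10411 genes for the mean (0.0384%) and 0% on each single day, with 7.77%, 8.81% and 10.9% of genes at an unadjusted p under 0.05 on days 2, 4 and 7. In the brightness fit of limma A2m rose, with an adjusted p of 0.0265 at day 2 and 0.00636 for the mean. That fit called 15 genes at day 2 (0.144%), 0 at day 4, 5 at day 7 (0.048%) and 34 for the mean (0.327%). The A2m call of day 2 in the brightness fit ended without day 2 sample 2 (adjusted p = 0.104) or sample 3 (0.0546), and the call for the mean held in each of the 9 fits that left out 1 sample, with adjusted p between 0.00304 and 0.0408. Without day 2 sample 2 that fit also called A2m at day 7 (adjusted p = 0.0147, against 0.111 with all samples).

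For 8 of the 9 samples the pair of whole-number signals behind the A2m ratio could be recovered, in lowest terms, so that both numbers of a pair may be too small by the same factor and levels cannot be set against each other between samples. Sample 2 of day 2 held 6069 in burn and 890 in sham, the widest of the recovered pairs. Sample 1 of day 7 held 8128 in burn and 2515 in sham. Sample 1 of day 4, the narrowest, held 3961 in burn and 3645 in sham. The burn number is the higher in each pair by construction, since the pairs are derived from ratios above 0, so they add no separate support.

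**Figure D1:**
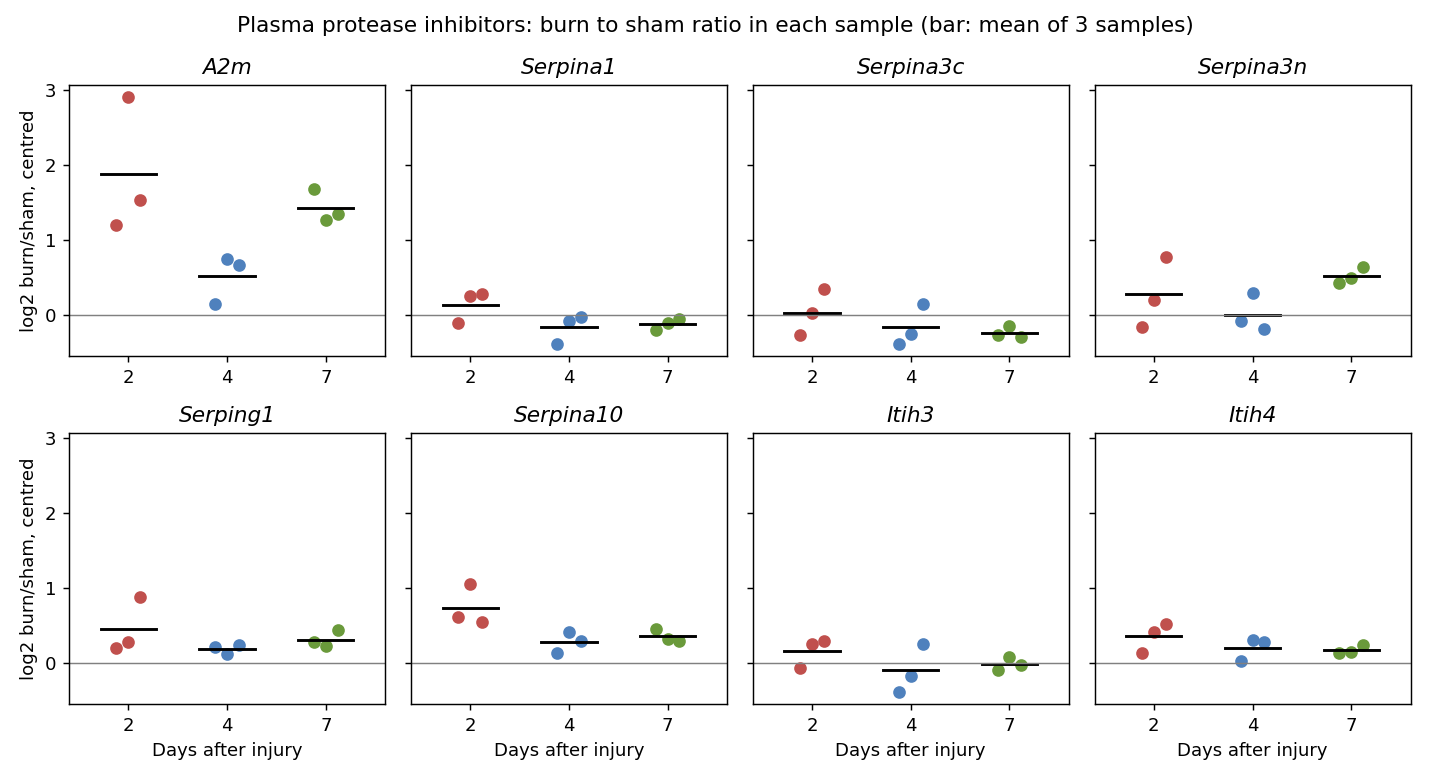
Each panel plots 1 gene, with the log2 ratio of burn over sham (centred on the array median) on the vertical axis and days 2, 4 and 7 after the injury on the horizontal axis. Points are single samples and bars the mean of 3 samples. A2m lies between 0.15 and 2.90, and Serping1, Serpina10 and Itih4 are also above 0 in 9 of 9 samples.

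Serpina10 encodes the protein Z-dependent protease inhibitor, a serpin that inactivates activated coagulation factor X. Its log2 ratios were 0.61, 1.04 and 0.54 at day 2, 0.12, 0.41 and 0.29 at day 4, and 0.45, 0.32 and 0.29 at day 7. All 9 samples were above 0. The 3 samples of day 2 lay above all 3 of day 4, as for 7.03% of all genes, and above all 3 of day 7, as for 7.15%. The share of genes with both patterns at once was not computed. The mean was 0.73 ± 0.27 at day 2 (1.66-fold), 0.28 ± 0.14 at day 4 and 0.35 ± 0.08 at day 7 (SD, n = 3 each). Over the 9 samples it was 0.45 (1.37-fold, 95% interval 0.27 to 0.63).

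In the limma fit with a common variance prior Serpina10 did not pass (adjusted p = 0.242 at day 2 and 0.147 for the mean). In the brightness fit of limma it rose at day 2 (adjusted p = 0.042) and for the mean (adjusted p = 0.0212), which makes 2 of the 8 genes called there, with A2m. The Serpina10 call of day 2 ended in each of the 9 brightness fits that left out 1 sample (adjusted p between 0.0592 and 0.334). Its call for the mean ended in 4 of them, without day 4 sample 2 (adjusted p = 0.102) or without day 7 sample 1 (0.0728), sample 2 (0.0619) or sample 3 (0.0582).

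Serping1 encodes the C1 inhibitor, which controls the first complement component and plasma kallikrein. Its log2 ratios were 0.20, 0.28 and 0.87 at day 2, 0.21, 0.12 and 0.23 at day 4, and 0.27, 0.22 and 0.43 at day 7. All 9 were above 0, and sample 3 of day 2 was the highest by a wide margin. The mean over the 9 samples was 0.32 (1.24-fold, 95% interval 0.12 to 0.52), with a limma adjusted p of 0.371, or 0.151 in the brightness fit.

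Serpina1 encodes alpha-1-antitrypsin, the main plasma inhibitor of neutrophil elastase. Its log2 ratios were -0.11, 0.24 and 0.27 at day 2, -0.39, -0.09 and -0.03 at day 4, and -0.21, -0.11 and -0.06 at day 7. It was above 0 in 2 samples and below 0 in 7. The mean over the 9 samples was -0.05 (95% interval -0.23 to 0.12, limma adjusted p = 0.859), an interval that leaves out a rise of the size seen for A2m or for the mean of Serpina10.

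Serpina3c and Serpina3n are related serpins of the antichymotrypsin family, and whether their probe sets tell the 2 RNAs fully apart was not tested. In the rat, the Serpina3n product is known as an inflammation-induced contrapsin-like inhibitor, and that of Serpina3c as the kallikrein-binding protein. Serpina3n had log2 ratios of -0.16, 0.19 and 0.77 at day 2, -0.09, 0.29 and -0.20 at day 4, and 0.42, 0.49 and 0.64 at day 7. It was above 0 in 6 of 9 samples, and its 3 samples of day 7 lay above all 3 of day 4, as for 8.58% of all genes. Serpina3c had -0.27, 0.02 and 0.34 at day 2, -0.39, -0.26 and 0.14 at day 4, and -0.27, -0.15 and -0.30 at day 7. It was below 0 in 6 of 9 samples and in all 3 of day 7.

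At day 7 the mean of Serpina3n was 0.52 ± 0.11 (1.43-fold) and that of Serpina3c -0.24 ± 0.08 (0.848-fold; SD, n = 3 each). Neither passed in limma, with adjusted p of 0.39 for Serpina3n and 0.621 for Serpina3c, or 0.228 and 0.522 in the brightness fit. Within a sample, the ratio of Serpina3n was above that of Serpina3c in 8 of 9, by 0.39 ± 0.38 on average (SD, n = 9), and the exception was day 4 sample 3, where it was lower by a log2 difference of -0.34. This pairing, like those of the neighbouring genes below, was chosen with the values known and has no test.

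The Itih genes were Itih4, whose product circulates free of bikunin and is an acute-phase protein, and Itih3, the heavy chain of pre-alpha-inhibitor. Itih4 had log2 ratios of 0.13, 0.42 and 0.51 at day 2, 0.03, 0.30 and 0.28 at day 4, and 0.13, 0.14 and 0.24 at day 7. All 9 were above 0 and the days overlapped. Its mean was 0.24 (1.18-fold, 95% interval 0.07 to 0.41), with a limma adjusted p of 0.394, or 0.182 in the brightness fit.

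Itih3 had log2 ratios of -0.07, 0.24 and 0.28 at day 2, -0.38, -0.17 and 0.25 at day 4, and -0.09, 0.08 and -0.03 at day 7, so that 4 samples were above 0 and 5 below. Its mean was 0.01 (95% interval -0.19 to 0.21, limma adjusted p = 0.973). Itih4 was above Itih3 in 9 of 9 samples, by 0.23 ± 0.14 on the log2 scale (SD, n = 9).

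**Figure D2:**
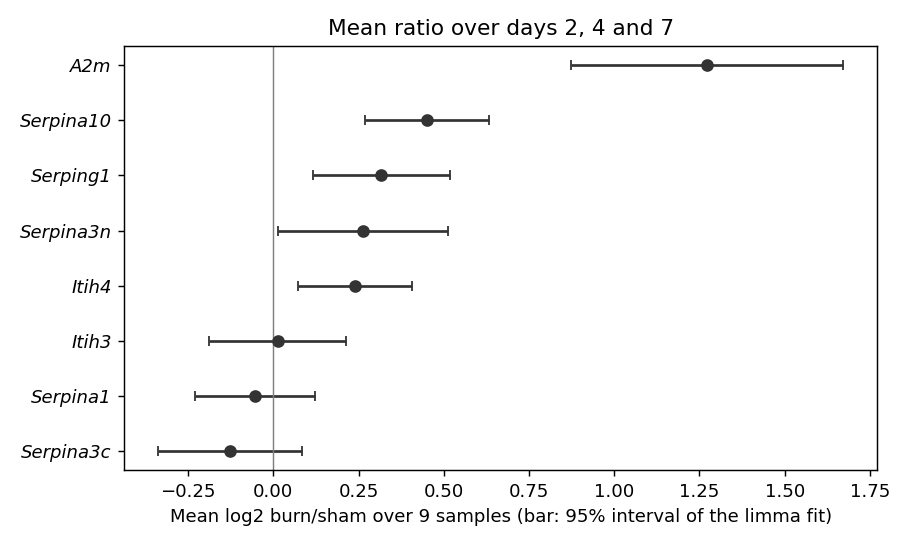
The horizontal axis gives the mean log2 ratio of burn over sham over the 9 samples of days 2, 4 and 7, with 1 row per gene and bars for the 95% interval of the limma fit. The intervals of A2m, Serpina10, Serping1, Serpina3n and Itih4 lie above 0, before any adjustment for the 10411 genes tested, and those of Itih3, Serpina1 and Serpina3c include 0.

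In order of the mean ratio, A2m (1.27) came before Serpina10 (0.45), Serping1 (0.32), Serpina3n (0.26), Itih4 (0.24), Itih3 (0.01), Serpina1 (-0.05) and Serpina3c (-0.13). The 95% interval of A2m does not reach that of the next gene, whereas each later neighbour in that order lies within the interval of the gene before it, apart from Itih3, whose mean is below the interval of Itih4. At an unadjusted p under 0.05 for the mean stood 5 of the 8 genes, all above 0, against 8.98% of all genes tested. The counts by day were 4 of 8 at day 2, 0 of 8 at day 4 and 3 of 8 at day 7, beside the 7.77%, 8.81% and 10.9% given above. A2m, Serping1, Serpina10 and Itih4 were above 0 in every one of the 9 samples, as were 0.48% of all genes, while 0.547% were below 0 in every one. For Itih4 this count depends on the centring, since day 4 sample 1 was at 0.0259 with it and at -0.0027 as deposited.

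The median of the 8 genes was 0.31 at day 2, 0.09 at day 4 and 0.24 at day 7, against medians over all genes of 0.00, 0.01 and -0.01. Without day 2 sample 1 the day 2 median was 0.47, without day 2 sample 3 it was 0.16, and without day 4 sample 2 the day 4 median was 0.04. By sample, the number of the 8 above 0 was 4, 8 and 8 at day 2, 4, 5 and 6 at day 4, and 5, 6 and 5 at day 7. Every sample except sample 1 of day 4 had A2m as its highest member, and there it was Serping1 at 0.21. Serpina3c was the lowest of the 8 in 7 of 9 samples.

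Whether the burn response differed between days was tested as a contrast between day means. The ratio at day 4 minus that at day 2 was below 0 for 8 of 8 genes, with a median of -0.27 against 0.01 for all genes, of which 51.8% were above 0. The same difference was below 0 for 9 of 9 hepatocyte markers (median -0.30) and for 18 of 20 other positive acute-phase proteins (median -0.33), and their part in the result was not tested. The hepatocyte markers include Alb, Ttr and Ahsg, known to fall in the acute phase, so they do not measure hepatocyte share alone. Ahsg also counts among the other inhibitors listed below, and Hnf4a among the inducers. A2m had a difference of -1.35 (95% interval -2.32 to -0.38, limma adjusted p = 0.584) and Serpina10 one of -0.45 (-0.90 to -0.01, adjusted p = 0.654). Both had non-overlapping samples between these days, as had 7.03% of all genes with day 4 the lower and 7.38% with day 4 the higher. Without day 2 sample 2 the difference was -0.84 for A2m and -0.30 for Serpina10, and over the 9 fits that left out 1 sample it was between -1.69 and -0.84 for A2m. From day 4 to day 7 the ratio differed by 0.91 for A2m (95% interval -0.06 to 1.88, adjusted p = 0.454) and by 0.51 for Serpina3n (-0.09 to 1.12, adjusted p = 0.498), both with non-overlapping samples, as had 8.58% of all genes with day 7 the higher and 11.1% with day 7 the lower. Serpina10 was lower at day 7 than at day 2 without overlap, as were 7.15% of all genes (5.48% were higher), with a difference of -0.38 (adjusted p = 0.696).

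None of the 8 genes passed for any contrast between days or for the F test over the 3 days in either limma fit (0 of 8). At an unadjusted p under 0.05 stood 2 of the 8 for day 4 minus day 2 (7.59% of all genes), 0 for day 7 minus day 2 (7.45%) and 0 for day 7 minus day 4 (11.7%). The brightness fit called 0.0288% of all genes for day 7 minus day 4 and 0.00961% for the F test. For the F test 1 of the 8, A2m, had an unadjusted p under 0.05 (0.0332), as had 10% of all genes, and its adjusted p was 0.467, or 0.282 in the brightness fit. The common fit called 0 of 10411 genes for that test, with 1044 at an unadjusted p under 0.05.

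The 4 Serpina genes lie within one 575 kb stretch of chromosome 6 (GRCr8, 128520894 to 129095950) that holds 18 protein-coding genes in the reference, 10 of them measured here. In order along the chromosome, the mean log2 ratios over the 3 days were 0.45 for Serpina10, 0.06 for Serpina6 (the corticosteroid-binding globulin), -0.05 for Serpina1 and 0.41 for Serpina11. Further along they were -0.02 for Serpina4 (kallistatin), 0.63 for Serpina5 (the protein C inhibitor), -0.40 for Serpina3m, -0.13 for Serpina3c, -0.08 for Serpina3l and 0.26 for Serpina3n. None of the 10 passed for this mean in the common limma fit, which called 0.0384% of all genes. In that fit Serpina5 had an unadjusted p of 0.297. Serpina10 exceeded Serpina1, in 9 of 9 samples, by 0.51 ± 0.18 (SD, n = 9). Itih4 and Itih3 are separated by 6.2 kb on chromosome 16. A2m lies on chromosome 4 (156570163 to 156619870) and Serping1 on chromosome 3 (90249410 to 90259299).

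**Figure D3:**
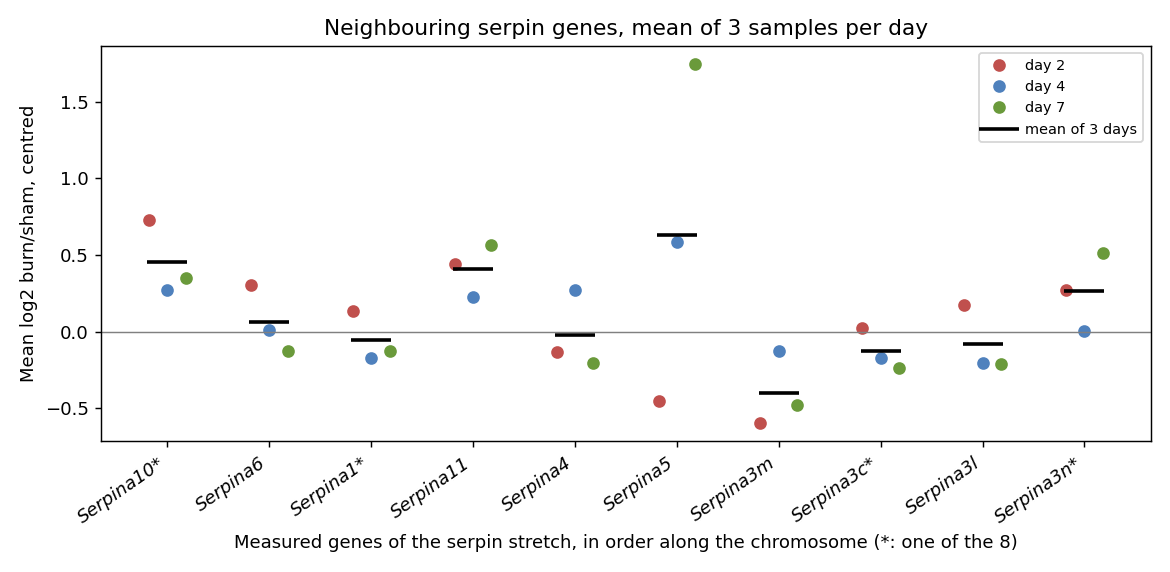
The measured genes of the serpin stretch are shown in their order along the chromosome, with the mean log2 ratio of burn over sham of 3 samples per day as points and the mean of the 3 days as a bar. The bars of Serpina5 (0.63), Serpina10 (0.45), Serpina11 (0.41), Serpina3n (0.26) and Serpina6 (0.06) lie above 0. Those of Serpina4 (-0.02), Serpina1 (-0.05), Serpina3l (-0.08), Serpina3c (-0.13) and Serpina3m (-0.40) lie below 0. The points of Serpina5 spread from -0.45 to 1.75.

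The promoters of 4 of the 8 genes, Serpina1, Serpina3n, Itih3 and Itih4, are in the RefSeq promoter table of GRCr8. The 250 bases before the gene start are printed for Serpina3n and Itih4, which hold a match to TTCNNNGAA, the letters that STAT factors are known to bind, and for Serpina1, which has none. Capitals mark that match.
Serpina3n, chr6:129088142-129088391, + strand: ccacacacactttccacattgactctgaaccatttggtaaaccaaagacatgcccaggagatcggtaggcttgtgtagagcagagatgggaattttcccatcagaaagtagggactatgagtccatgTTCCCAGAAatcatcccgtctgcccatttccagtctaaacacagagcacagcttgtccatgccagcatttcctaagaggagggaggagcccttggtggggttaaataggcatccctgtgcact
Itih4, chr16:6086735-6086984, + strand: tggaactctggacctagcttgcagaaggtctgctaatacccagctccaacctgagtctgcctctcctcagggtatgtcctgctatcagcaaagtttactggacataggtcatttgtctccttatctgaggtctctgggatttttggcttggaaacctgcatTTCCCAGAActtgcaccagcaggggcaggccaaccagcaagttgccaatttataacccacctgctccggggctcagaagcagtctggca
Serpina1, chr6:128653126-128653375, - strand: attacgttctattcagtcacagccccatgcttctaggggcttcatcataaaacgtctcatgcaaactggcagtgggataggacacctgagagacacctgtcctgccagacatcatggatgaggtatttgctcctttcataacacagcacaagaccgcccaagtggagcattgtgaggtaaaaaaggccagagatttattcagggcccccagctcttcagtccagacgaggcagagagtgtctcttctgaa

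The match has the same letters, TTCCCAGAA, in both genes, from -123 to -115 before the start of Serpina3n and from -89 to -81 before that of Itih4. It overlaps on the other strand with CTGGGAA, known from rat A2m as the core of an acute-phase element. Of 33469 promoter windows of this length, 7.67% hold TTCNNNGAA on either strand and 9.56% hold CTGGGAA. TTGCNNAA, letters bound by C/EBP factors, was found on either strand at -232 to -225 in Itih4 and in 9.22% of all windows. No match to these 3 motifs was found in the windows of Serpina1 or Itih3. The Itih3 window (chr16:6123375-6123624) lies mostly inside the span given for the gene (6108378 to 6123609, - strand). The lack of a match there therefore does not describe the 250 bases before that span. A match is a description of letters and no evidence of binding here.

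Of 42 genes listed as other plasma protease inhibitors or their relatives, 26 were measured. The list also holds serpins that are no protease inhibitors (Serpina6, Serpina7, Serpinf1) and a carboxypeptidase (Cpb2), so its counts do not describe inhibitors alone. In either limma fit 0 of the 26 passed on any of the 3 days, for their mean or for a contrast between days. For the mean the common and brightness fits called 0.0384% and 0.327% of all genes, so 0 of 26 says little about this list. The median of the 26 over the 3 days was 0.06, with 14 above 0 and 12 below. In the common fit 5 of the 26 had an unadjusted p under 0.05 for the mean, against 8.98% of all genes. Those with the smallest p above 0 were Serpina11, a serpin with little-known function, at 0.41 (adjusted p = 0.225), Kng2l1, a gene of the kininogen family, whose products inhibit cysteine proteases, at 0.64 (0.291), and Serpina7, the thyroxine-binding globulin, at 0.78 (0.412). Below 0 they were Serpine2 (protease nexin) at -0.21, Timp3, a metalloproteinase inhibitor, at -0.14, and Serpina3m at -0.40, with adjusted p between 0.652 and 0.733.

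Serpina11 was above 0 in 8 of 9 samples, at 0.67, 0.47 and 0.19 on day 2, 0.45, -0.13 and 0.36 on day 4, and 0.54, 0.55 and 0.60 on day 7. Mug1, an alpha-macroglobulin of rodent plasma related to A2m, had 0.67, 0.90 and 0.21 at day 2, -0.63, -1.17 and -0.36 at day 4, and 1.02, 0.30 and 1.10 at day 7. Its day 4 samples were all below 0 and those of the other days all above. Of all genes 2.8% had day 4 below both other days without overlap. The adjusted p of Mug1 in limma was 0.483 at day 4 and 0.322 at day 7. Between days it was 0.516 for day 4 minus day 2, 0.234 for day 7 minus day 4 and 0.367 for the F test. Kng2l1 had 1.08, 1.45 and 0.44 at day 2, 0.32, 0.53 and -0.36 at day 4, and 0.72, 0.34 and 1.22 at day 7. Ambp, which encodes bikunin, the partner of the Itih chains, had a mean of -0.0034 (adjusted p = 0.993).

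A list of proteases these inhibitors act on, clearance receptors and related genes gave 18 measured genes of 27 listed. Among the related genes are the lectin Mbl2, the lipoprotein receptor Scarb1 and the chaperone Lrpap1. The median of the 18 over the 3 days was 0.08, with 14 above 0. In the common fit 4 of the 18 had an unadjusted p under 0.05 for the mean, against 8.98% of all genes. In either fit 0 passed, beside 0.0384% and 0.327% of all genes for the mean. Lrp1, the receptor that clears alpha-2-macroglobulin and serpin complexes, was at 0.30 (adjusted p = 0.428), its chaperone Lrpap1 at 0.16 (0.526) and the complement protease C1s, a target of the C1 inhibitor, at 0.24 (0.514). Below 0 stood Proc (protein C) at -0.09, the complement protease C1r at -0.11 and Plat (tissue plasminogen activator) at -0.07, with adjusted p between 0.775 and 0.921. Lrp1 was at 0.40, 0.48 and 0.85 on day 2, -0.27, -0.21 and 0.23 on day 4, and 0.03, 0.57 and 0.66 on day 7. Its values of day 4 were lower than all of day 2, as for 7.03% of all genes (limma adjusted p = 0.648 for day 4 minus day 2).

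Of 27 listed genes of the signals that induce the acute phase, 24 were measured, with a median of 0.08 over the 3 days. In either fit 0 of them passed, beside 0.0384% and 0.327% of all genes for the mean. At an unadjusted p under 0.05 for the mean in the common fit stood 8 of the 24, against 8.98% of all genes. Stat3 had a mean of 0.59 (unadjusted p = 0.00425, limma adjusted p = 0.346). The glucocorticoid receptor gene Nr3c1 was at -0.89 at day 4 (adjusted p = 0.48), with samples on both sides of 0 on days 2 and 7. Socs3, a feedback inhibitor that STAT3 induces, was at 0.70, 0.75 and 0.85 on day 2, 0.26, 0.46 and -0.53 on day 4, and 0.98, 0.56 and 1.30 on day 7 (mean 0.59, adjusted p = 0.218). All samples of days 2 and 7 were above those of day 4, as for the 2.8% of all genes given above, and Socs3 passed no contrast between days (adjusted p between 0.332 and 0.909). Il1r1, the interleukin-1 receptor, was at 0.72 over the 3 days (0.247). It was above 0 in all samples of days 2 and 7 and below 0 in all of day 4. Its day 4 samples thus also lay below both other days, as for 2.8% of all genes. Hnf4a, a hepatocyte transcription factor, was at 0.40 (0.320). Below 0 stood Rela, an NF-kB subunit, at -0.27 (0.371), Lifr, a receptor of the interleukin-6 family, at -0.49 (0.412), and Cish, a cytokine feedback inhibitor, at -1.20 (0.444).

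Among 20 measured of 24 listed other positive acute-phase proteins, 17 were above 0 for the mean of the 3 days, with a median of 0.09. In the common fit 7 of the 20 had an unadjusted p under 0.05 for this mean, against 8.98% of all genes. The common limma fit called 1, Orm1 (alpha-1-acid glycoprotein, 0.78, adjusted p = 0.0263), and the brightness fit 4, Orm1, C4bpa, Lbp and Lcn2, beside 0.0384% and 0.327% of all genes. The Orm1 call of the common fit ended in 8 of the 9 fits that left out 1 sample (adjusted p between 0.0625 and 0.16) and held without day 2 sample 3 (0.0439). The 5 genes whose ratios lay nearest to those of A2m, by the root mean square difference over the 9 samples, were Pcolce at 0.55, Isyna1 at 0.57, Lbp at 0.65, Orm1 at 0.72 and Xist at 0.73. The corresponding value for A2m against 0 was 1.47. The Xist probe set was dim, with a brightness of 5.46 against a median of 10.37 over all probe sets (log2 of the smaller recovered signal). Its ratios at day 2 were -0.14, 3.59 and 0.41, so that sample 2, which also had the highest A2m ratio (2.90), stood far above the other two.

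Markers of cell types that a sample could hold moved as follows beside these values, and their part in the results was not tested. The medians of 9 measured hepatocyte markers by sample were between 0.02 and 0.26 at day 2, between -0.24 and 0.07 at day 4 and between -0.14 and -0.01 at day 7. All 9 had a mean above 0 at day 2, 1 of 9 at day 4 and 2 of 9 at day 7. Of 10 exocrine pancreas markers, 10 had a mean above 0 at day 4, where the medians by sample were 0.11, 3.44 and 1.78. The A2m ratios of the same 3 samples were 0.15, 0.74 and 0.66. Of the 7 macrophage markers 4 had a mean above 0 at day 2, 7 at day 4 and 3 at day 7, with medians by sample between -0.26 and 0.53. The 3 measured genes listed for neutrophils had medians by sample between -0.32 and 2.62. S100a8 had means of 0.79, 0.39 and 2.48 on days 2, 4 and 7, and S100a9 had 0.79, 1.29 and 1.72. At day 7 both had an unadjusted limma p under 0.05 (0.0128 and 0.00576), as had 10.9% of all genes. The other, Ly6g6c, is not an established neutrophil marker and was at 0.09 at day 7. Medians by sample were between -0.37 and 0.83 for the 4 red cell genes and between -0.29 and 0.24 for the 8 stellate cell and fibroblast genes. None of these marker genes passed in either limma fit for a day or for the mean, where few of all genes passed. At an unadjusted p under 0.05 in the common fit stood 8 of the 10 exocrine pancreas markers at day 4 (8.81% of all genes). At day 2 it was 1 of the 10 (7.77%) and at day 7 it was 0 (10.9%).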

How the data were processed

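Burn over sham RNA ratios were measured in 12 samples, of which the 9 of days 2, 4 and 7 were used. The authors deposited 1 log2 ratio per probe set and sample. Per the labels, both channels of a sample were processed together on Affymetrix RAE230A arrays, although that platform takes 1 labelled sample per array. Scaling and software are not stated in the labels. Of 15923 probe sets 57 controls were left out. The platform annotation gave 12783 of the other 15866 a single symbol, 312 several and 2771 none. Of the single-symbol probe sets 12748 had a gene in the GRCr8 reference table, which changed 0 symbols. Each array was centred on its median, and probe sets of a gene were averaged. Genes were fitted with limma 3.58.1 in R 4.3.3 (lmFit, eBayes, 1 mean per day, 6 residual degrees of freedom, adjusted p threshold 0.05). Precision is limited by the number of arrays.

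Each ratio was searched, by continued fractions in Python 3.11.15, for the pair of whole numbers up to 20000 whose log2 quotient it is within 1e-09. Brightness is the median over the 9 arrays of the log2 of the smaller number, unrecovered values taken at 20000. Of all values of the 9 arrays 5.56% were not recovered, and 7 of the 8 genes were unrecovered in 7 or 8 of 9 arrays. After a small random shift of the ratios, between 11.76% and 13.3% per array were still matched by a pair, so a pair can be spurious. The fits were tested on simulated data. The 8 genes and all lists were chosen with earlier results of these data known. Named beside them are, by rule, up to 3 genes of each other list with the smallest p on each side of 0, any that passed and the 5 genes nearest to A2m. Ambp and the genes of the serpin stretch were named for their position or function after the values were seen. Serpinf1, Cpb2 and Mbl2 were named only to show what their lists hold. Alternatives were no centring, single probe sets, a filter on dim probe sets, other variance priors, array weights, a replicate block and leaving out each sample.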

Additional observations from a re-analysis of the deposited data

How the results depend on the processing

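The common limma fit called 0 of the 8 genes on every day, for the mean and for every contrast, and 0 in each of the 9 fits that left out 1 sample. The brightness fit called 2 at day 2 and 2 for the mean, and with a sample left out as well, an alternative chosen after seeing the data, between 0 and 1 at day 2, 0 at day 4, between 0 and 1 at day 7 and between 1 and 2 for the mean. Leaving out dim probe sets, 1 of the 8 was called for the mean, A2m (adjusted p = 0.0447).

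Over all genes, the brightness fit called 15 at day 2, 5 at day 7, 34 for the mean, 3 for day 7 minus day 4 and 1 for the F test, where the common fit called 0, 0, 4, 0 and 0. The dim filter gave 3 at day 2 and 8 for the mean, array weights 2 at day 4, and single probe sets 1 at day 7, 2 for the mean and 1 for day 7 minus day 4. Leaving out 1 sample gave 0 to 1 on each day, 0 to 3 for the mean, 0 to 1 for day 4 minus day 2 and for day 7 minus day 4, and 0 for the other contrasts. The sample numbers pair no samples by their labels. Same-numbered samples of different days had correlations of their deviations across genes between -0.041 and 0.0682, and 2 of 9 samples correlated best with their own number. With the number as a replicate block 0 genes were called for the mean in place of 4, and Orm1 had an adjusted p of 0.129.

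The median of the 8 genes ranged from 0.163 to 0.474 at day 2, 0.0431 to 0.131 at day 4, 0.192 to 0.269 at day 7 and 0.196 to 0.306 for the mean when 1 sample was left out, and was 0.323 at day 7 without centring. Without centring the sign turned for some means near 0, none of them called. They were Serpina3c at day 2 (-0.0077), Serpina3n at day 4 (-0.0344) and Itih3 at day 7 (0.0701). The sign also turned for day 7 minus day 4 of Serpina3c (0.0522) and Itih4 (0.0901). With 1 sample left out signs turned for none of the called values, and the ranges that cross 0 were -0.783 to 0.0707 for A2m at day 7 minus day 2, -0.279 to 0.0392, -0.0611 to 0.0262 and -0.0465 to 0.0595 for Itih3 at day 4, day 7 and the mean, and -0.129 to 0.178 for Serpina3c at day 2. For Serpina3n at day 4 the range was -0.144 to 0.101, and for Serping1 at day 7 minus day 2 it was -0.269 to 0.0694. For day 7 minus day 4 the ranges were -0.0529 to 0.265 for Itih3, -0.117 to 0.0181 for Itih4, -0.064 to 0.114 for Serpina1, -0.000687 to 0.142 for Serpina10 and -0.177 to 0.0883 for Serpina3c.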
